A study of Rattus norvegicus with 9 samples.

Results

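The leukocyte integrins are the cell-surface adhesion receptors by which white blood cells hold on to vessel walls, matrix and each other. The 6 genes described here were chosen by name: the alpha subunits Itgal, Itgam, Itgae and Itga4 and the beta subunits Itgb2 and Itgb7. All 6 were among the 17337 genes of the count table, and 5 of them were among the 11337 genes with enough counts to be tested. Their transcripts were followed across 9 RNA-seq libraries of cultured cardiac fibroblasts, the connective-tissue cells that make the matrix of the heart, from Sprague Dawley rats of 3 ages with 3 libraries each. The fetal group was taken at embryonic day 18, the neonatal group at postnatal day 1 and the adult group at 7 weeks of age. The labels name no genetic change and no treatment compared. In all groups the cells were primary (passage 0) and were grown until confluent in a medium that held 10% serum and 0.1 mM ascorbic acid. The labels name neither a sort nor a purification, so each library could hold RNA of any cell that survived in the flask. They do not state that the libraries of an age came from separate animals or cultures, and the p-values below measure only the spread between these libraries.

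An integrin is a pair of 1 alpha and 1 beta subunit, and neither chain reaches the surface in quantity without the other. The product of Itgb2, the beta2 chain CD18, pairs with the products of Itgal (CD11a, giving LFA-1), Itgam (CD11b, giving Mac-1 or complement receptor 3), Itgax and Itgad, and in adult tissues these pairs are largely restricted to blood-derived cells. The alpha4 chain of Itga4 pairs with beta1 to give VLA-4 or with beta7 to give a gut-homing receptor, and VLA-4 is also made by mesenchymal and epicardial cells of the developing heart. The alphaE chain of Itgae (CD103) pairs with beta7 and binds E-cadherin on epithelium.

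The 6 genes took 3 different courses with age. Itgb2, Itgam and Itgal were near the limit of detection in fetal cultures, low in neonatal cultures and higher in adult cultures, with Itgb2 at a mean of 650 ± 74.1 counts per 1000000 counts (CPM, SD, n = 3) in the adult. Itga4 went the other way, from 120 ± 48.3 CPM in the fetal and 106 ± 9.26 CPM in the neonatal to 22.6 ± 5.38 CPM in the adult libraries. Itgae stayed between 6.13 and 11.2 CPM in all 9 libraries. Itgb7 did not exceed 11 reads in any library.

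Differences between ages were tested with edgeR's quasi-likelihood test, with Benjamini-Hochberg adjusted p-values across all tested genes and a threshold of 0.05. Between fetal and neonatal libraries 3 of the 5 tested members were higher in the neonatal and none was lower, where 36.3% of all tested genes were called, 18.3% higher and 18.0% lower. Between fetal and adult libraries 3 were higher in the adult and 1 was lower, against 34.9% and 35.5% of all tested genes (70.5% in either direction). Between neonatal and adult libraries the counts were again 3 higher and 1 lower, against 31.6% and 31.8% of all tested genes (63.5% in either direction). For each of these calls every library of one age lay above every library of the other. Such separation was common among all tested genes: 29.2% lay wholly higher and 28.1% wholly lower from fetal to neonatal, 35.9% and 35.8% from fetal to adult, and 37.6% and 38.5% from neonatal to adult. The median log2 fold change over the 5 tested members was 2.37, 4.56 and 2.19 in that order, and over all tested genes it was -0.01 in each comparison. The 3 comparisons share libraries, so their values are given side by side and are not separate evidence.

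**Figure D1:**
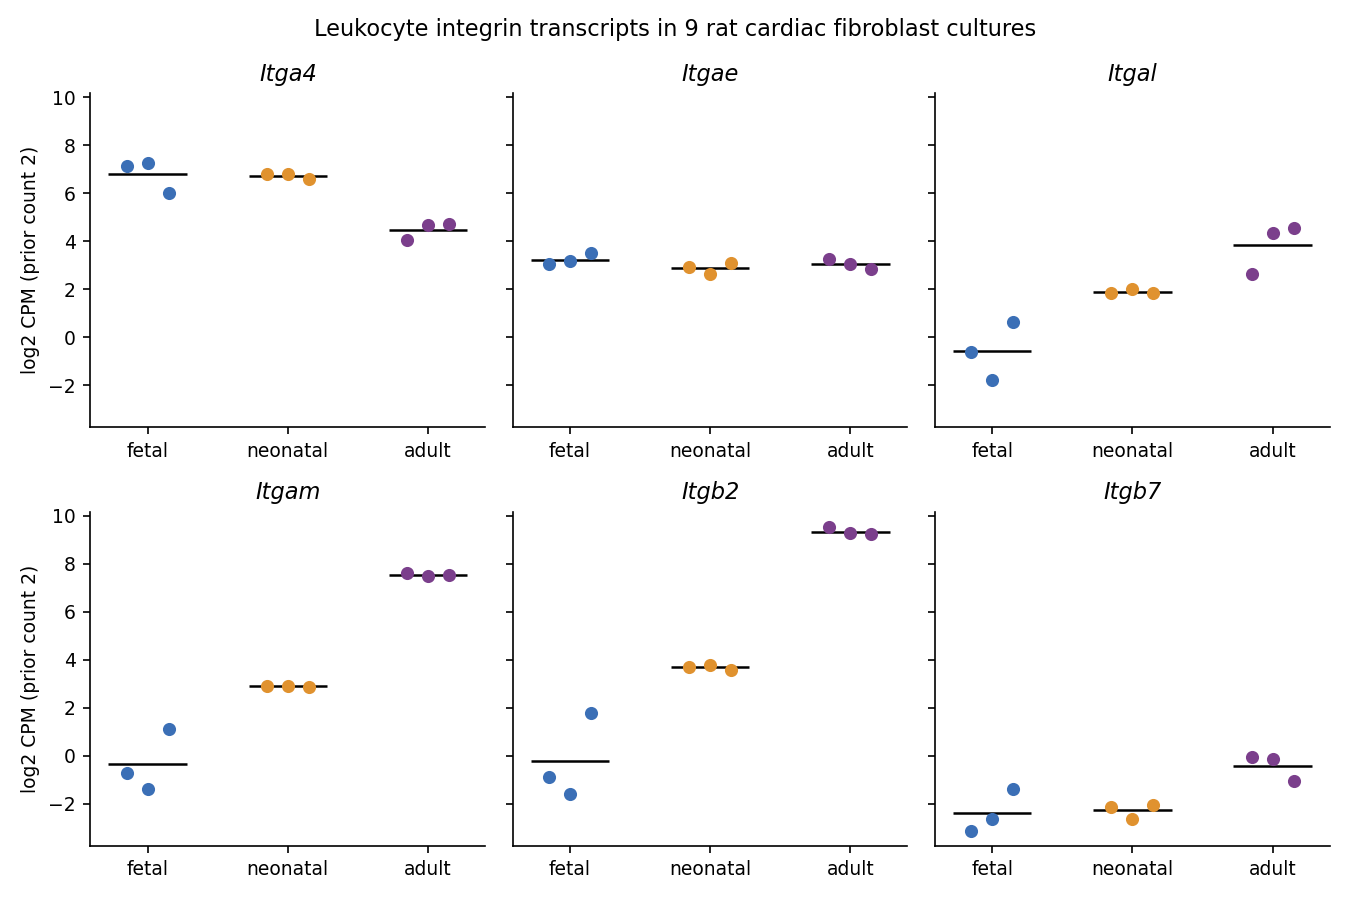
Level of each of the 6 integrin transcripts in every library, as log2 CPM with a prior count of 2 on the vertical axis and age on the horizontal axis; points are libraries and lines are means of 3. Itgb2 and Itgam climb in separate steps from fetal to adult, Itgal climbs with more spread, Itga4 is lower in the adult, and Itgae is flat.

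The libraries held 13392825 to 22850491 assigned counts, with the adult ones the smallest at no more than 13810825. Of 8 fibroblast marker genes, the collagen gene Col1a1 stood at 26035 ± 9821 CPM in fetal, 37796 ± 2211 CPM in neonatal and 14965 ± 2783 CPM in adult libraries. By mean, Col3a1, Ddr2 and Postn had the same order of ages as Col1a1. Col3a1 stood at 12971, 30805 and 9468 CPM in fetal, neonatal and adult libraries. The means of Tcf21, Pdgfra and Vim instead rose with age. In order of age, the transcription factor gene Tcf21 stood at 11.8 ± 4.25, 86.1 ± 2.07 and 149 ± 66.8 CPM. The receptor gene Pdgfra stood at 122 ± 25.6, 182 ± 4.72 and 433 ± 216 CPM. Col1a2, also a defining collagen of these cells, had only 1 to 21 reads in any library, and the reason for this was not tested. Fetal replicate 3 stood apart from the others: its log2 CPM correlated at 0.962 with both other fetal libraries, while those 2 correlated at 0.996. It held more of several leukocyte and epithelial transcripts than the other fetal libraries, and the main values that turn on it are given by library or with and without it. Adult replicate 1 was apart to a smaller degree. Its log2 CPM correlated at 0.986 and 0.981 with adult replicates 2 and 3, which correlated at 0.990 with each other. In bulk RNA of this kind, fewer cells of a type and less RNA per cell cannot be told apart.

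Itgb2, the shared beta chain of the leukocyte-restricted receptors, had the largest fold changes of the 5 tested members. The gene lies on chromosome 20 (rn6, 11777778 to 11815647, minus strand), with 18 exon blocks that cover 3156 bases. Its reads numbered 8, 5 and 63 in fetal replicates 1 to 3, 235, 294 and 182 in the neonatal, and 9601, 8499 and 8013 in the adult replicates. As CPM the fetal values were 0.432, 0.220 and 3.35, the neonatal 12.9, 13.7 and 11.8, and the adult 735, 614 and 600.1. No library of one age overlapped with any of another, and fetal replicate 3 was the highest of its age. The log2 fold change was 3.31 ± 0.588 (SE, adjusted p = 0.00332) from fetal to neonatal, 5.66 ± 0.507 (adjusted p = 1.88e-05) from neonatal to adult and 8.97 ± 0.624 (adjusted p = 2.58e-06) from fetal to adult. With fetal replicate 3 left out, the changes from fetal became larger, at 5.31 to the neonatal and 10.97 to the adult.

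Itgam encodes the alpha chain that with beta2 makes Mac-1, a receptor of macrophages, monocytes and neutrophils for complement fragments, fibrinogen and ICAM-1. It spans bases 199495427 to 199545292 of chromosome 1 (rn6, plus strand), with 30 exon blocks of 3456 bases in all. Its reads numbered 9, 6 and 39 in the fetal, 134, 159 and 111 in the neonatal and 2541, 2494 and 2496 in the adult replicates. In CPM the fetal libraries stood at 0.486, 0.265 and 2.07, the neonatal at 7.38, 7.39 and 7.19 and the adult at 194, 180 and 187. The 3 ages did not overlap, and the spread within the neonatal and within the adult libraries was small beside the steps between them. Itgam rose by 3.0 ± 0.440 on the log2 scale (SE, adjusted p = 0.00135) from fetal to neonatal and by a further 4.67 ± 0.330 (adjusted p = 4.85e-06) to the adult. From fetal to adult its log2 fold change was 7.68 ± 0.414 (adjusted p = 5.54e-07). Without fetal replicate 3 it was 8.97, and that from fetal to neonatal was 4.30.

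Itgal encodes the alpha chain of LFA-1, the receptor of lymphocytes and many myeloid cells for the ICAM family. It lies on the same chromosome as Itgam (rn6, chromosome 1, 198744192 to 198781744, plus strand, 31 exon blocks, 4360 bases). Its reads numbered 10, 4 and 27 in the fetal, 64, 84 and 53 in the neonatal and 79, 283 and 309 in the adult replicates. The corresponding CPM values were 0.540, 0.176 and 1.43, then 3.52, 3.90 and 3.43, and then 6.05, 20.4 and 23.1. Adult replicate 1 was far below the other adult libraries, yet all adult values lay above all neonatal ones. The log2 fold change of Itgal was 2.19 ± 0.562 (SE, adjusted p = 0.00792) from neonatal to adult and 4.56 ± 0.669 (adjusted p = 0.000260) from fetal to adult. From fetal to neonatal it was 2.37 ± 0.680 (adjusted p = 0.0257). That last call was the least secure among the members: it was lost without fetal replicate 1, without fetal replicate 2 and without any 1 of the neonatal libraries, with adjusted p from 0.0609 to 0.0734, and over all alternatives tried p ran from 0.000803 to 0.0734. When fetal replicate 3 was left out, the changes from fetal were 3.38 to the neonatal and 5.57 to the adult.

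Itga4 was the leukocyte integrin gene with the highest fetal and neonatal levels, and it fell in the adult. It lies on chromosome 3 (rn6, 66192977 to 66264344, plus strand, 28 exon blocks, 3736 bases). Its reads numbered 2629, 3488 and 1222 in the fetal, 2026, 2413 and 1480 in the neonatal and 215, 351 and 349 in the adult replicates. In CPM it stood at 142, 154 and 64.9, then at 112, 112 and 95.8, and then at 16.5, 25.4 and 26.1. Every adult library was below every younger one, while the fetal and neonatal libraries overlapped because fetal replicate 3 was low. Itga4 fell by 2.41 on the log2 scale from fetal to adult (SE 0.319, adjusted p = 0.000143). It fell by 2.23 from neonatal to adult (SE 0.318, adjusted p = 0.000298). The difference between neonatal and fetal libraries, -0.18 ± 0.294 (SE, adjusted p = 0.667), did not pass the test. Without fetal replicate 3 it was -0.47 with an adjusted p of 0.0501.

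Itgae showed no difference between ages that passed the test. It lies on chromosome 10 (rn6, 59652549 to 59711793, plus strand, 31 exon blocks, 3754 bases). Its reads numbered 152, 201 and 210 in the fetal, 136, 132 and 132 in the neonatal and 124, 112 and 94 in the adult replicates, or 8.21, 8.86 and 11.2, then 7.49, 6.13 and 8.54, and then 9.49, 8.09 and 7.04 CPM. The libraries of the 3 ages overlapped throughout. The log2 fold change was -0.35 ± 0.185 (SE, adjusted p = 0.162) from fetal to neonatal, 0.16 ± 0.189 (adjusted p = 0.493) from neonatal to adult and -0.20 ± 0.186 (adjusted p = 0.364) from fetal to adult.

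Itgb7, the beta chain that Itgae needs for its receptor, was barely detected. It lies on chromosome 7 (rn6, 143820868 to 143833383, minus strand, 14 exon blocks, 2654 bases). Its reads numbered 0, 1 and 5 in the fetal, 2, 1 and 2 in the neonatal and 11, 11 and 5 in the adult replicates, and it did not pass the filter on low counts. In CPM its adult libraries, at 0.842, 0.795 and 0.374, lay above all others, of which the highest was fetal replicate 3 at 0.266. Summed over an age, 27 adult reads against 6 fetal ones gave a ratio of 6.71 after scaling for depth, with an exact 95% interval of 2.71 to 19.9, and 27 against 5 neonatal reads gave 7.39 (2.81 to 24.6). The neonatal to fetal ratio was 0.907 (0.219 to 3.57). These intervals cover counting error only. In a fit without the filter, edgeR gave Itgb7 an adjusted p of 0.0245 from fetal to adult and 0.0262 from neonatal to adult. Without fetal replicate 3 the filter let in 11519 genes, Itgb7 among them, and the members called higher came to 4 in both adult comparisons. Itgb7 passed that filter through its reads in the adult, the age where it was highest. These calls are therefore not added support.

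The RefSeq promoter table (assembly GRCr8) held entries for 4 of the 6 genes, among them Itgam, which rose at each age, and Itgae, which did not. The stretches before the RefSeq gene start of these 2 are printed to show what letters precede a gene that was called and a gene that was not. Capitals mark matches on either strand to GAGGAA, a core read by PU.1 and other ETS factors of blood cells, to TGTGGT, read by RUNX factors, and to GGGCGG, read by SP1.
Itgam, chr1:192089342-192089495, plus strand: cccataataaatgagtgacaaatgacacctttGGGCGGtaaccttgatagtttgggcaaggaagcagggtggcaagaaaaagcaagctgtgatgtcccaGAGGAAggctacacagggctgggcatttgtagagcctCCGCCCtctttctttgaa
Itgae, chr10:58203118-58203330, plus strand: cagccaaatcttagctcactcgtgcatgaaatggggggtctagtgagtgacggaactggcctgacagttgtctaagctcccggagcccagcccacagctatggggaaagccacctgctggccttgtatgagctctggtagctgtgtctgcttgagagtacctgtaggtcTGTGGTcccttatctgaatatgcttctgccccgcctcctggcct
Over the whole window of the table, 250 bases before to 50 after its start site, Itgam held GAGGAA on each strand, starting 151 and 39 bases before the site, GGGCGG on each strand and TGTGGT once. Itgae held TGTGGT once and GAGGAA once, the latter 29 bases before the site and outside the printed stretch. Itga4 and Itgb7 each held TGTGGT once and no GAGGAA, and Itgb7 held GGGCGG once. Among 33469 rat promoters of the same length, 27.6% held GAGGAA, 17.3% TGTGGT and 33.1% GGGCGG on either strand. None of the 4 held TGANTCA, read by AP-1 and present in 7.33% of promoters, and the TATAAA of a TATA box, present in 14.2%, was found only in Itgb7. A match describes these letters and does not show binding.

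Compared between genes as CPM per kilobase of exon, the order of the 6 transcripts turned over with age. In fetal libraries Itga4 led at 32.2 ± 12.9 (SD, n = 3), followed by Itgae at 2.51 ± 0.412, and Itgb2, Itgam, Itgal and Itgb7, from 0.422 down to 0.0389, each overlapped with the next; for these 4 the highest fetal value was that of replicate 3. In neonatal libraries Itga4, at 28.5 ± 2.48, was followed by Itgb2 at 4.05 ± 0.301. Itgam at 2.12 ± 0.0330 and Itgae at 1.97 ± 0.322 overlapped, and Itgal at 0.830 ± 0.0575 and Itgb7 at 0.0359 ± 0.0164 came last. In adult libraries Itgb2 led at 206 ± 23.5 and Itgam came next at 54.2 ± 2.07. Itga4 at 6.06 ± 1.44, Itgal at 3.79 ± 2.11 and Itgae at 2.19 ± 0.327 each overlapped with the next, and Itgb7 was lowest at 0.253 ± 0.0969.

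Expressed as shares of the summed per-length level of the 6 genes, Itga4 made up 88.4% ± 9.49 (SD, n = 3) of the fetal, 75.9% ± 1.51 of the neonatal and 2.26% ± 0.681 of the adult total. By library the fetal share of Itga4 was 93.6%, 94.1% and 77.4%. Itgb2 made up 0.337%, 0.160% and 4.73% of the total in fetal replicates 1 to 3, 10.8% ± 0.281 in the neonatal and 75.5% ± 2.43 in the adult libraries. The adult mixture was thus mostly the beta2 chain and its Itgam partner, which held 19.9% ± 1.01.

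**Figure D2:**
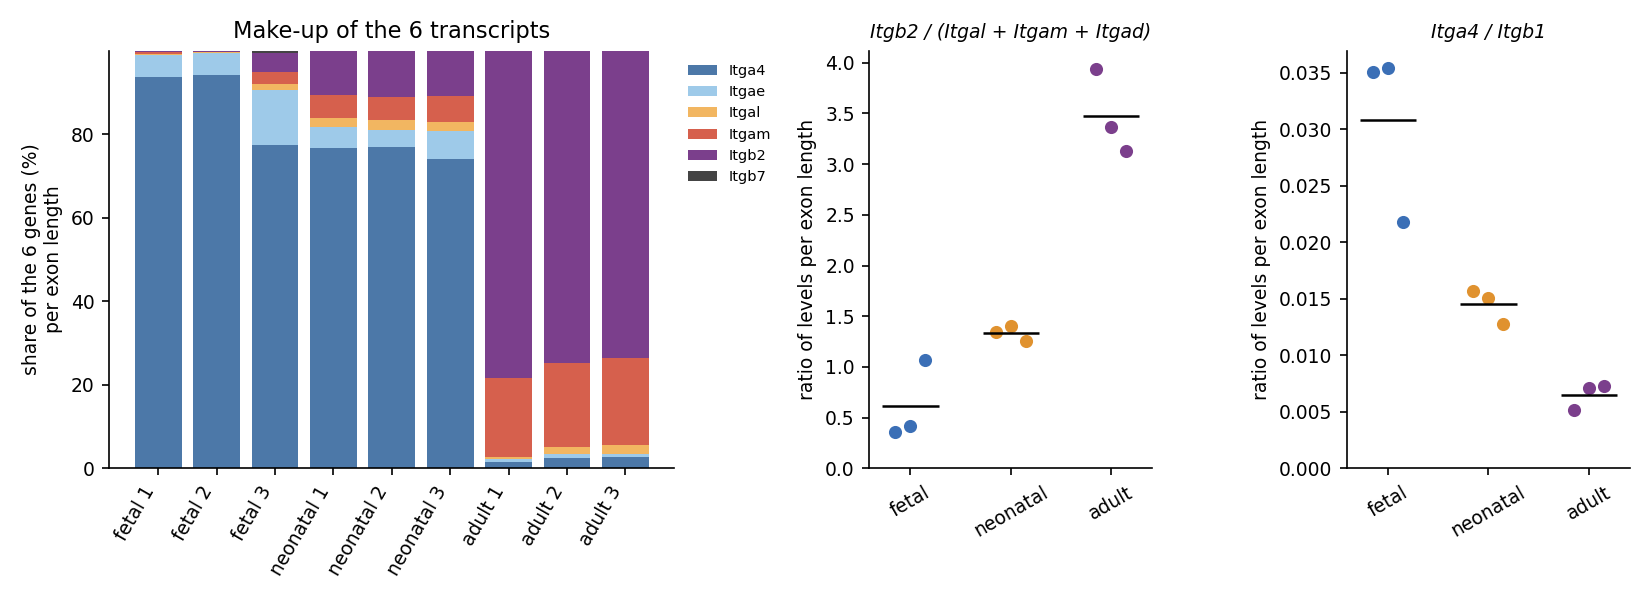
Left, share of each gene in the summed per-length level of the 6 genes, in percent, for each of the 9 libraries as stacked bars; middle and right, the ratio of Itgb2 to its measured alpha partners and of Itga4 to Itgb1, with libraries as points and means as lines. Itga4 fills 77.4% or more of each fetal bar and 2.71% or less of each adult bar, and the 2 ratios run in opposite directions with age.

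Known partners were set against each other in the same per-length unit. The level of Itgb2 was compared with the sum of its alpha partners Itgal, Itgam and Itgad; the remaining partner, Itgax, was not analysed here. This ratio was 0.355, 0.419 and 1.07 in fetal replicates 1 to 3, 1.34, 1.41 and 1.25 in the neonatal and 3.94, 3.36 and 3.13 in the adult replicates. Ages did not overlap, and the beta chain exceeded its 3 measured alpha chains in every neonatal and adult library. The fetal ratios rest on few reads and were higher in replicate 3 than in the others.

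Itgad, the alphaD chain described on tissue macrophages, had 3 to 8 reads in each fetal and neonatal library and 67, 51 and 62 in the adult ones. Its log2 fold change was 4.02 ± 0.420 (SE, adjusted p = 2.22e-05) from fetal and 3.89 ± 0.420 (adjusted p = 4.08e-05) from neonatal to adult. Its neonatal to fetal difference did not pass the test. Within the alpha chains, Itgam exceeded Itgal per length by 1.14, 1.89 and 1.82 times in the fetal, by 2.64, 2.39 and 2.64 times in the neonatal and by 40.6, 11.1 and 10.2 times in the adult replicates. The adult value of 40.6 belonged to replicate 1, whose Itgal was low. Without it the adult mean fell from 20.6 to 10.7.

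Itgb1, which encodes the beta1 chain shared by matrix receptors of nearly all adherent cells, was the far more abundant partner of Itga4. It stood at 3713 ± 702 CPM in fetal, 7208 ± 218 CPM in neonatal and 3389 ± 237 CPM in adult libraries. It rose from fetal to neonatal (log2 fold change 0.96 ± 0.139, SE, adjusted p = 0.00106) and fell by 1.09 from neonatal to adult (SE 0.139, adjusted p = 0.000118). The change from fetal to adult, -0.13 ± 0.138 (adjusted p = 0.410), did not pass the test, but without fetal replicate 3 it was -0.28 and passed it (adjusted p = 0.00332). Per length, Itga4 amounted to 0.0351, 0.0354 and 0.0218 of Itgb1 in the fetal, to 0.0157, 0.0151 and 0.0127 in the neonatal and to 0.00517, 0.00706 and 0.00724 in the adult replicates. This ratio therefore dropped at each age with no overlap, although Itga4 itself did not differ between fetal and neonatal libraries by the test. Itgb7 amounted to 0, 0.000382 and 0.00492 of its partners Itgae and Itga4 together in fetal replicates 1 to 3, to 0.00130, 0.000553 and 0.00175 in neonatal and to 0.0458, 0.0335 and 0.0159 in adult replicates. Fetal replicate 3 lay above the neonatal libraries and the other 2 fetal ones below them.

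Of 20 other integrin genes listed, 13 were tested. Between fetal and neonatal libraries 4 were higher and 1 was lower, where 36.3% of all tested genes were called, and 8 were called in all without fetal replicate 3. Between fetal and adult 2 were higher and 6 lower, beside 70.5% of all tested genes called. Between neonatal and adult 1 was higher, Itgad, and 9 were lower, beside 63.5%. The list's median log2 fold change was 0.68, -0.60 and -0.88 in that order, beside -0.01 over all tested genes. Most of these genes encode receptors for collagen, laminin and other matrix. Itga7, a laminin receptor chain of muscle, stood at 82.7 ± 34.0 CPM in fetal, 134 ± 14.4 CPM in neonatal and 7.25 ± 1.61 CPM in adult libraries, and fell by 4.21 on the log2 scale from neonatal to adult (SE 0.346, adjusted p = 1.15e-05). Itgb3, the beta chain of vitronectin receptors, rose from 37.5 ± 5.92 CPM in the fetal to 125 ± 4.10 CPM in the neonatal and fell to 22.6 ± 2.67 CPM in the adult libraries, with log2 fold changes of 1.74 ± 0.120 (adjusted p = 2.25e-05) and -2.47 ± 0.126 (adjusted p = 4.15e-07). Itgb6, an epithelial beta chain, fell by 5.09 from fetal to adult (SE 0.408, adjusted p = 3.93e-06). This fold rests on few adult reads: 158, 221 and 338 in the fetal replicates against 5, 6 and 3 in the adult ones.

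The collagen receptor chains Itga1 and Itga11 were higher in neonatal than in fetal libraries. Itga11 stood at 132 ± 46.1, 467 ± 5.72 and 253 ± 109 CPM (SD, n = 3) in order of age, with a log2 fold change of 1.82 ± 0.362 (SE, adjusted p = 0.00558) at the first step. Its call from fetal to adult (0.94, adjusted p = 0.0401) was lost under 9 of the 14 alternatives, with adjusted p from 0.0506 to 0.170. For Itga1 the step from fetal to neonatal was 1.25 ± 0.327 (adjusted p = 0.0180), a call lost without neonatal replicate 1 (0.0571) or 2 (0.0590). Itga6, a laminin receptor chain, was lower in the adult than in the fetal libraries (-1.05 ± 0.302, adjusted p = 0.0121), but missed the threshold when fetal replicate 3 was left out (adjusted p = 0.0705).

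**Figure D3:**
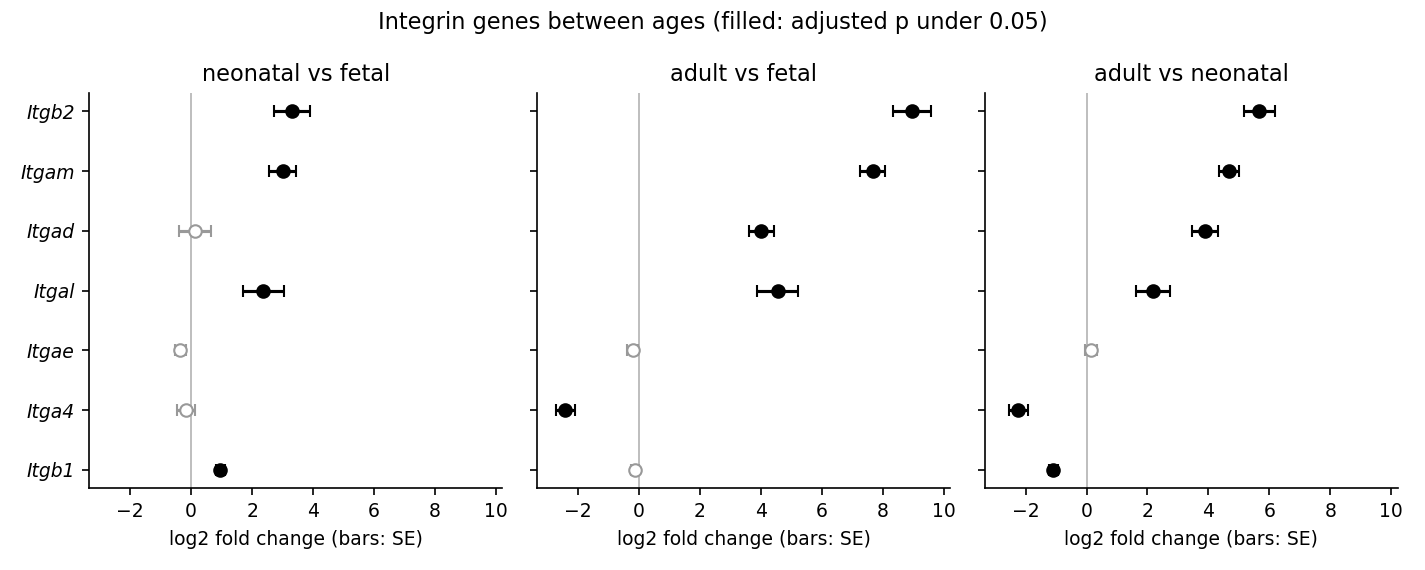
Log2 fold changes of the 5 tested members and of the partner genes Itgad and Itgb1 between each pair of ages, with bars for the SE; filled points passed the test. Itgb2 and Itgam lie farthest to the right in all 3 panels, and Itga4 lies to the left of zero in both adult comparisons.

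The genes whose profile lay nearest to each member were found by Euclidean distance between centred log2 CPM profiles over the 9 libraries, with a prior count of 2. Nearest to Itgb2 were Hk3 at a distance of 1.00, C5ar1 at 1.11 and Lyz2 at 1.16. Nearest to Itgam were Cd53 at 0.737, Nckap1l at 1.04 and Tlr7 at 1.07. Of these, Lyz2 encodes a lysozyme of macrophages, C5ar1 a receptor for a complement fragment and Cd53 a leukocyte tetraspanin.

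Nearest to Itgal was Cx3cr1, the fractalkine receptor, at 1.65, followed by Gas7 at 1.72 and Alox12 at 1.83. Cx3cr1 had 20, 103 and 161 reads in the adult replicates, and so shared the low value of replicate 1. Nearest to Itga4 were Tenm3 at 0.369, Fam129a at 0.442 and Slitrk2 at 0.537, and nearest to Itgae were Abt1 at 0.331, Brix1 at 0.333 and Uhrf2 at 0.339. With a prior count of 0.5, all 3 neighbours stayed the same for Itgb2 and Itgae, 2 for Itga4 and 1 each for Itgam and Itgal.

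Transcripts of the cells that carry these integrins were read in the same libraries. The summed level of 12 macrophage genes (among them Cd68, Csf1r and Lyz2) ran from 14.9 to 69.9 CPM in the fetal, from 157 to 175 CPM in the neonatal and from 4086 to 5834 CPM in the adult libraries. All 12 had their 3 highest values in the adult libraries, and 11 of 12 were highest in replicate 3 among the fetal libraries. Of all tested genes, 35.9% lay wholly higher in the adult than in the fetal libraries and 37.6% than in the neonatal ones. The share of all genes with either exact pattern was not counted. A general leukocyte list of 8 genes summed to 91.0 to 149, 198 to 207 and 2222 to 2642 CPM. Its pan-leukocyte surface gene Ptprc (CD45) had 0, 2 and 52 reads in the fetal, 134, 138 and 126 in the neonatal and 1747, 1946 and 2035 in the adult replicates. Its Cd48, by contrast, stood already at 56.9 ± 13.7 CPM in the fetal libraries, and its Cd52 had no more than 6 reads in any library.

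Markers of other blood cells were at much lower sums. The T cell list of 8 genes summed to between 0.744 and 2.60 CPM in fetal and neonatal libraries and to between 17.2 and 24.2 CPM in the adult. Of its adult sum Cd8a made up 14.4 ± 2.58 CPM and Lck 6.12 ± 0.861 CPM, while the defining T cell gene Cd3e had at most 1 read in any library. The lists for B cells (5 of 6 genes in the table), NK cells and neutrophils (6 genes each) did not exceed 0.194, 1.81 and 1.95 CPM in any library. The dendritic list of 6 genes ran from 7.12 to 10.5, 11.6 to 14.6 and 8.99 to 12.6 CPM. Of this Zbtb46 made up 8.73 ± 1.93, 12.8 ± 1.61 and 6.82 ± 0.719 CPM. In fetal and in neonatal libraries 4 of its 6 genes had no read. Ccr7 of this list went the other way and was called higher in the adult. It had at most 8 reads in a fetal and 1 in a neonatal library, but 23 to 53 in the adult ones. Clec9a had 3 to 9 reads in the adult libraries and none in the others. The mast cell list of 6 genes ran from 6.59 to 13, 5.50 to 6.78 and 1.95 to 5.13 CPM. In every age 5 of the 6 mast cell genes had no read in any library, and 5, 4 and 2 of the 6 neutrophil genes had none in the fetal, neonatal and adult libraries. The platelet list (4 of 6 genes in the table) summed to between 73.9 and 86.5 CPM in adult libraries and to at most 2.66 CPM in the others, and nearly all of it was Pf4, at 78.3 ± 7.05 CPM in the adult. The erythroid list (5 of 7 genes) did not exceed 1.72 CPM.

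Among other sources of RNA, the endothelial list of 7 genes summed to 8.26 to 9.48, 17.3 to 20.7 and 81.6 to 96.1 CPM with age. Most of its adult sum was Tie1, at 70.4 ± 1.99 CPM. Of its 6 tested genes, 4 were higher and 2 lower from neonatal to adult, where 63.5% of all tested genes were called. The higher ones were Tie1, Pecam1, Cdh5 and Vwf, with Pecam1 going from a mean of 0.776 to 7.16 CPM. The lower ones were the endothelial receptor Kdr, from 5.55 ± 0.364 to 0.901 ± 0.413 CPM, and Tek, from 8.84 ± 1.33 to 5.31 ± 2.01 CPM. The cardiomyocyte list of 7 genes ran from 6245 to 9679 CPM in the fetal, from 4660 to 5181 CPM in the neonatal and from 304 to 318 CPM in the adult libraries. Nearly all of the adult sum was Tnnt2, at 310 ± 6.35 CPM, and the other 6 genes were each at a mean of 0.565 CPM or less. Among these Nppa had stood at 3041 ± 1245 CPM in fetal libraries. The epithelial list of 6 genes stood at 48.8, 48.0 and 269 CPM in fetal replicates 1 to 3, at no more than 9.06 CPM in the neonatal and at no more than 1.84 CPM in the adult libraries. The part of any of these cell types in the integrin differences was not tested.

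**Figure D4:**
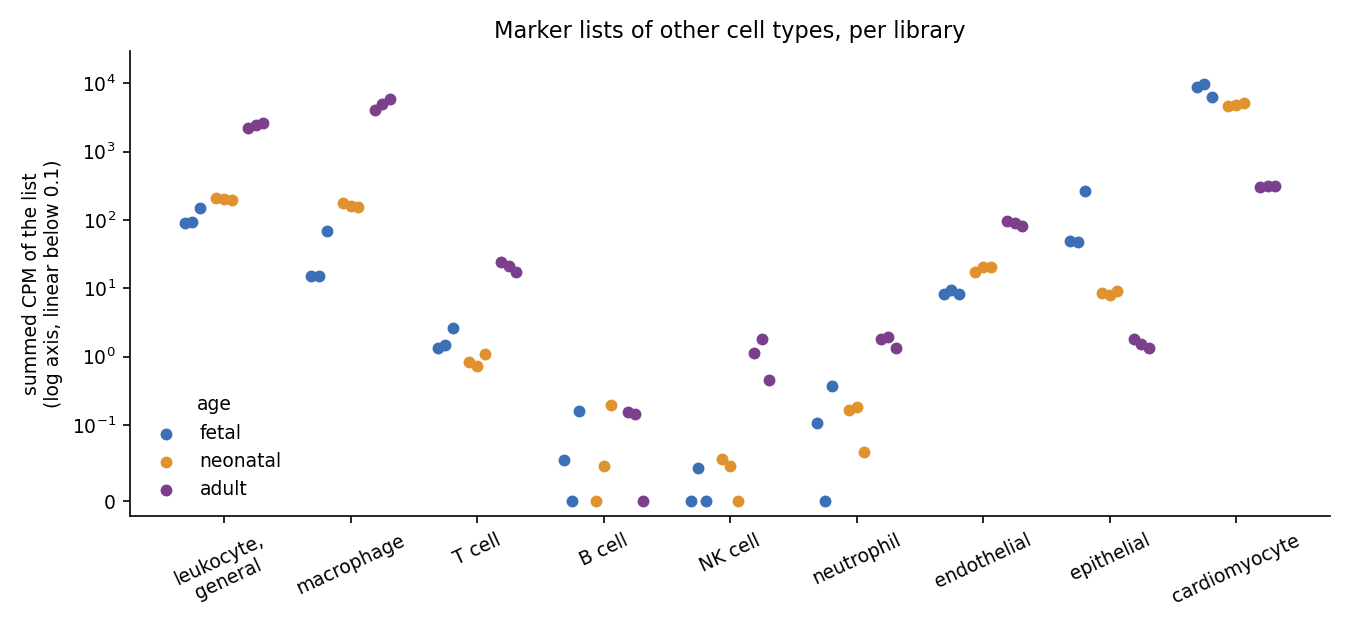
Summed CPM of marker lists for other cell types in each library, on a log axis that is linear below 0.1, with 1 point per library coloured by age. The macrophage and general leukocyte lists are highest in the adult, the cardiomyocyte list, there mostly Tnnt2, is lowest, and the epithelial list stands out in 1 fetal library.

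Each member was then set against the leukocyte list in the same library, as the difference between its log2 CPM and the mean log2 CPM of the 8 genes. For Itgb2 this difference was -1.66, -2.5 and -0.91 in the fetal replicates, 0.55, 0.64 and 0.44 in the neonatal and 2.99, 2.65 and 2.24 in the adult replicates. Itgam moved from -1.81 ± 0.447 (SD, n = 3) through -0.25 ± 0.0146 to 0.84 ± 0.256. On this reference no library of one age reached the range of another for either gene, but the list holds Cd52, at or near 0 reads, and Cd48, which was already high in the fetal libraries. Itgal showed no such order, with differences of -2.06 ± 0.651, -1.25 ± 0.0951 and -2.87 ± 0.906. Itga4 went from 5.34 ± 1.75 in the fetal to -2.23 ± 0.271 in the adult libraries, and Itgae from 1.76 ± 0.843 to -3.67 ± 0.443. By library the fetal values of Itga4 were 6.36, 6.34 and 3.32.

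The choice of reference changed this order for Itgam with the macrophage genes and with Ptprc, and for Itgb2 with Ptprc only. Against the mean of the 12 macrophage genes, Itgam differed by -0.52 ± 0.382, 0.37 ± 0.0968 and -0.05 ± 0.199 on the log2 scale. Its adult values thus lay below its neonatal ones and near that mean, in log2 CPM not divided by exon length. Per kilobase of exon, its adult mean of 54.2 CPM was below those of all genes of the list but Adgre1 and Cd163. The list mean also holds Cd163, which had no read in any fetal or neonatal library and 30 to 82 in the adult ones. Itgb2 on the macrophage reference kept its order with no overlap between ages, going from -0.40 through 1.16 to 1.74. Against Ptprc alone, Itgam was at 0.96 ± 1.39, 0.01 ± 0.191 and 0.40 ± 0.128, and Itgb2 at 1.08, 0.80 and 2.19. On Ptprc the fetal libraries of Itgb2 overlapped with the neonatal and with the adult ones, and Ptprc itself had 0 and 2 reads in fetal replicates 1 and 2.

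The ligands of these receptors were read next. Of 18 listed genes 14 were tested, of which 3 were higher and 3 lower from fetal to neonatal (36.3% of all tested genes were called), 8 higher and 4 lower from fetal to adult (70.5%), and 7 higher and 2 lower from neonatal to adult (63.5%). The list's median log2 fold change was -0.03, 1.84 and 1.18, beside -0.01 over all tested genes. Icam1, the main counter-receptor of LFA-1 and Mac-1, stood at 94.6, 93.4 and 100.4 CPM in the fetal, 220, 214 and 222 CPM in the neonatal and 984, 735 and 612 CPM in the adult replicates. It rose at both steps with no overlap, by 1.18 ± 0.147 (SE, adjusted p = 0.000455) and 1.83 ± 0.149 (adjusted p = 7.43e-06) on the log2 scale. Icam2, an endothelial ligand of LFA-1, had 23 to 64 reads in each fetal and neonatal library and 190, 211 and 205 in the adult ones, and rose by 2.76 ± 0.291 (adjusted p = 3.56e-05) from neonatal to adult.

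Vcam1, the cell-surface ligand of VLA-4, went opposite to Itga4 between neonatal and adult libraries. It stood at 8.53, 8.38 and 5.05 CPM in the fetal, 1.93, 2.09 and 1.42 CPM in the neonatal and 270, 124 and 80.1 CPM in the adult replicates. It rose by 6.42 ± 0.537 (SE, adjusted p = 1.26e-05) on the log2 scale from neonatal to adult, and by 5.79 without adult replicate 1. Its lower level in neonatal than in fetal libraries, -1.99 ± 0.553 (adjusted p = 0.0229), lost its call when any 1 of the 6 fetal and neonatal libraries was left out, with adjusted p from 0.0543 to 0.0971. Fn1, which encodes fibronectin, the matrix ligand of VLA-4, was at 9724 to 26798 CPM in the fetal, 23812 to 24976 CPM in the neonatal and 13541 to 16619 CPM in the adult libraries. Its differences in the adult, -0.44 (adjusted p = 0.234) from fetal and -0.68 (adjusted p = 0.0875) from neonatal, did not pass the test, but without fetal replicate 3, whose Fn1 was the lowest of all, they were -0.78 (adjusted p = 6.16e-06) and -0.68 (adjusted p = 9.86e-06).

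Cdh1, which encodes E-cadherin, the ligand of the Itgae receptor, rested on 1 library. It had 24, 53 and 2126 reads in the fetal, 15, 18 and 13 in the neonatal and 8, 12 and 20 in the adult replicates. It was called lower in the neonatal (log2 fold change -5.53 ± 1.70, SE, adjusted p = 0.0333) and in the adult (-5.28 ± 1.72, adjusted p = 0.0217). Without fetal replicate 3 these were -1.13 (adjusted p = 0.0347) and -0.89 (adjusted p = 0.0583). Without any 1 neonatal library the first lost its call (adjusted p from 0.102 to 0.108), as the second did without any 1 adult library (0.0540 to 0.0671). Madcam1, the gut ligand of the alpha4 beta7 pair, had at most 8 reads in any library and was not tested.

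Of the soluble ligands, C3 and Spp1 were higher in the adult, while the 3 fibrinogen genes Fga, Fgb and Fgg had no read in any adult library and at most 3 in any other. C3, the complement protein whose cleaved form Mac-1 binds, stood at 0.756, 0.529 and 2.44 CPM in the fetal, 1.43, 1.02 and 1.23 CPM in the neonatal and 316, 131 and 93.6 CPM in the adult replicates. It rose by 7.20 ± 0.649 on the log2 scale from neonatal to adult (SE, adjusted p = 1.96e-05), and by 6.51 without adult replicate 1. Spp1, or osteopontin, a ligand of alpha4 and alpha9 integrins and a product of macrophages, stood at 109, 109 and 299 CPM, then at 96.6, 98.4 and 98.1 CPM, and then at 2969, 3053 and 3203 CPM. It rose by 4.98 ± 0.410 (adjusted p = 1.15e-05) from neonatal to adult. Among the junctional ligands, Jam2 was highest in the neonatal libraries, at 28.1 ± 1.09 CPM (SD, n = 3), against 9.43 ± 1.40 CPM in the fetal and 6.34 ± 0.450 CPM in the adult. Jam3 fell by 0.95 on the log2 scale from neonatal to adult (SE 0.168, adjusted p = 0.000920), and F11r, which encodes the LFA-1 ligand JAM-A, fell by 1.52 from fetal to neonatal (SE 0.198, adjusted p = 0.000592). Thy1, a surface protein of fibroblasts that Mac-1 can bind, stood at 76.9 ± 29.2, 321 ± 8.24 and 288 ± 38.2 CPM and rose by 2.06 ± 0.263 (SE, adjusted p = 0.000668) from fetal to neonatal. Icam4 had 0, 3 and 0 reads in the fetal, 9, 6 and 2 in the neonatal and 76, 130 and 105 in the adult replicates. It was called higher in the adult than in the fetal libraries (adjusted p = 9.89e-06), and no fold is given against so few fetal reads.

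**Figure D5:**
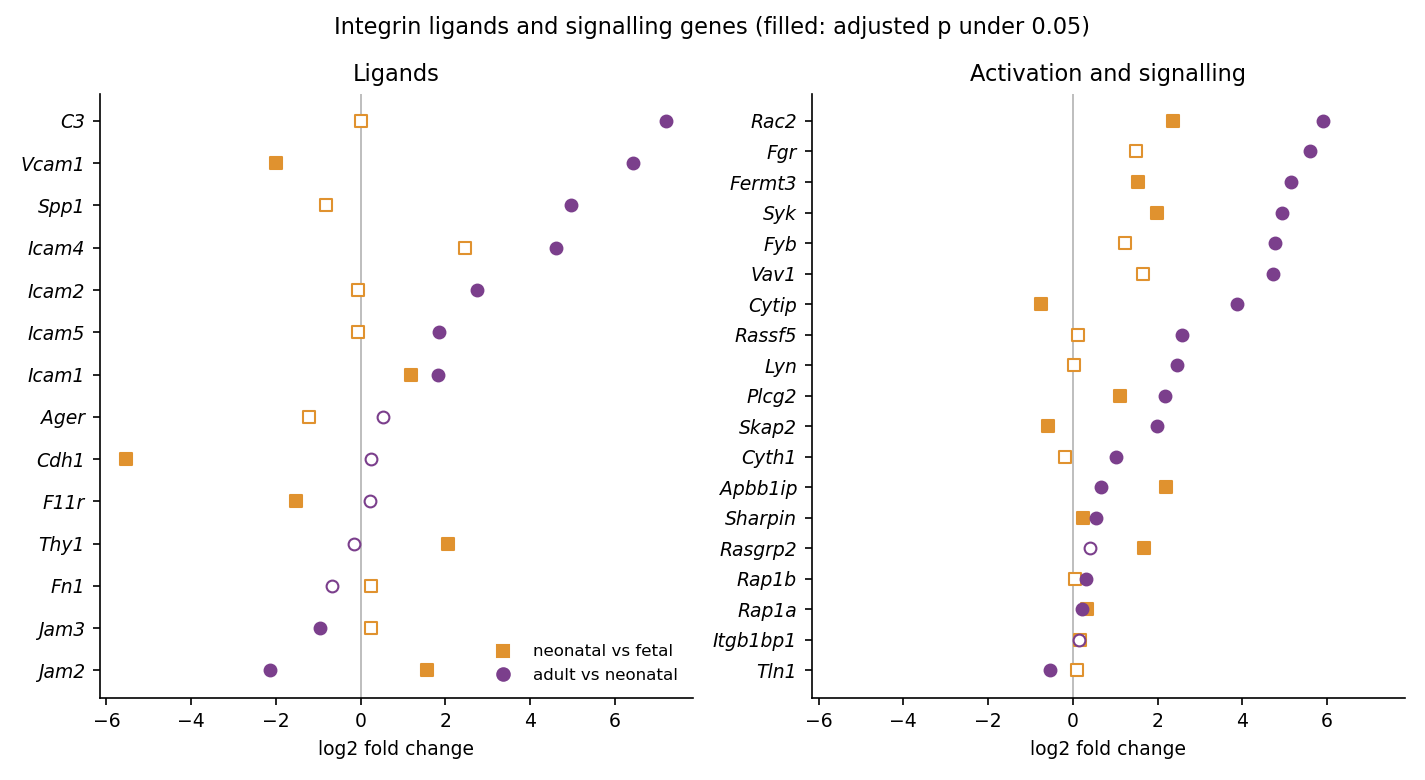
Log2 fold changes of the tested ligand genes (left) and of genes that regulate integrins or signal from them (right, 1 tested gene of the list left out). Squares are neonatal against fetal and circles adult against neonatal. Filled marks passed the test. In the adult, C3, Vcam1 and Spp1 lead the ligands and Rac2 and Fgr the signalling genes shown.

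Integrins on leukocytes are switched on from inside the cell by talin and kindlin and pass signals on through Src-family kinases and Syk. Of 22 listed genes that regulate integrins, in either direction, or signal from them, 20 were tested. Between fetal and neonatal libraries 9 were higher and 2 lower. In the adult 19 were higher and none lower than in the fetal, and 17 higher and 1 lower than in the neonatal libraries. These counts do not separate genes that switch integrins on from genes that restrain them. The shares called among all tested genes were 36.3%, 70.5% and 63.5%. The list's median log2 fold change was 0.72, 2.79 and 2.32, beside -0.01 over all tested genes. With that fetal library (replicate 3) left out, the count from fetal to neonatal became 14 higher and 1 lower, and that from fetal to adult gained 1 lower gene. Several of them, such as Fermt3, Rac2 and Fgr, are themselves genes of blood cells.

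Fermt3, the kindlin of blood cells, stood at 0.540, 0.573 and 2.82 CPM in fetal replicates 1 to 3, at 3.76 ± 0.106 CPM (SD, n = 3) in neonatal and at 135 ± 13.3 CPM in adult libraries. Rac2, a small GTPase of blood cells, stood at 0.216, 0.220 and 2.18 CPM in the fetal replicates and at 4.39 ± 0.585 and 264 ± 8.84 CPM in the later ages, and rose by 2.37 ± 0.568 (SE, adjusted p = 0.0128) and 5.92 ± 0.427 (adjusted p = 5.48e-06) on the log2 scale at the 2 steps. The first of these was 4.27 without fetal replicate 3. Fgr, a Src-family kinase of myeloid cells, stood at 0, 0.132 and 2.28 CPM in the fetal replicates and at 2.19 ± 0.134 and 106 ± 5.34 CPM in the later ages, and rose by 5.60 ± 0.567 (adjusted p = 3.94e-05) from neonatal to adult.

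Tln1, which encodes the broadly expressed talin, stood at 1250 ± 349 CPM (SD, n = 3) in fetal, 1348 ± 31.3 CPM in neonatal and 936 ± 23.1 CPM in adult libraries. It was lower in the adult than in the neonatal by the test (log2 fold change -0.53 ± 0.177, SE, adjusted p = 0.0262), a call that was lost when any 1 of those 6 libraries was left out (adjusted p from 0.0510 to 0.0730). Apbb1ip, the adaptor that brings talin to the membrane, stood at 9.03 ± 3.18, 41.6 ± 3.28 and 66.3 ± 6.92 CPM in order of age, and rose by 2.20 ± 0.227 (adjusted p = 0.000194) from fetal to neonatal. Syk, the kinase that relays integrin signals, rose by 1.98 ± 0.377 (adjusted p = 0.00417) at that step, and by 2.83 without fetal replicate 3. The adaptor gene Skap2 fell by 0.59 there (SE 0.0774, adjusted p = 0.000616). Cytip, a regulator of leukocyte adhesion, was called lower there too (-0.75 ± 0.217, adjusted p = 0.0270). That call was lost under 7 alternatives (adjusted p from 0.0520 to 0.0803). DESeq2 and the leaving out of any 1 neonatal library were among them. Skap2 and Cytip were both called higher in the adult than at either earlier age. In order of age, the means of Skap2 were 48.9, 32.5 and 130 CPM. Those of Cytip were 1.16, 0.687 and 10.3 CPM. From neonatal to adult the test gave adjusted p = 9.41e-08 for Skap2 and 4.84e-07 for Cytip.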

How the data were processed

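RNA was sequenced from 9 cardiac fibroblast libraries. The authors deposited gene counts for all of them; per the file headers these were made with featureCounts 1.6.3 on an rn6 annotation, with only the annotation and output options given. Per the submitters' processing notes, Trimmomatic 0.39, STAR 2.5.2b, Subread 1.6.3, FastQC and DESeq2 were used. A deposited table of normalized signal values (12786 genes) equalled the counts divided by 1 size factor per library, and served only for an alternative scaling. Columns were mapped to samples by name, and no column was left over.

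Counts were tested with edgeR 4.0.16 (R 4.3.3): filterByExpr by age, TMM scaling, robust quasi-likelihood fit of all 9 libraries with age as the only term, Benjamini-Hochberg adjustment over 11337 genes, threshold 0.05. SEs follow from the fold change and F statistic. CPM are per 1000000 TMM-scaled counts, with a prior count of 2 on the log2 scale. Levels between genes were divided by the exon length of the count table, but the log2 differences from the leukocyte and macrophage lists and from Ptprc were not. On simulated counts the fit was tested before use. Without strand or molecular identifiers in the counting, antisense reads cannot be separated and intervals cover counting error only. No other gene of the table overlapped a member's span.

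The members, gene lists and alternatives were chosen with earlier results of these data known. Named were all members, their partners and direct ligands, the 3 called list genes with the largest fold change in each direction, and the 3 nearest genes of each member; 1 gene of the signalling list is counted but not reported here, and of genes ranked in several comparisons not every fold change is printed. Further list genes (Fermt3 and the marker genes), the shares of the 6, the Itgam to Itgal ratio and the counts for fetal replicate 3 were chosen after values were seen. Alternatives were the authors' size factors, library size alone, no filter, DESeq2 1.42.0, a replicate block and leaving out each library. Replicate pairs differed by more than counting noise, so none was counted as a duplicate.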

Additional observations from a re-analysis of the deposited data

How the results depend on the processing

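Over the 14 alternatives, 204 of 210 fold changes of the members kept their direction and side of the threshold. Another 5 were the lost calls of Itgal from fetal to neonatal, and Itga4 changed sign there without fetal replicate 2 (0.043; leave-one-out range -0.47 to 0.043). Counts of members called stayed within 1.5 times throughout. Other list genes kept 668 of 712 fold changes; these are the fold changes of the genes that the naming rule picks and of partners and direct ligands, not of every list gene. Of 90 differences from the leukocyte list recomputed, 30 moved by more than 1 SD. From fetal to neonatal, leaving out 1 library gave 2476 to 4679 called genes of all tested (main value 4114), with 1090 to 2260 lower calls, the fewest without a neonatal library. Library size alone gave 1360 higher and 3325 lower calls there, or 29.0% higher in place of 50.4%, and moved the median of all genes by -0.17 in that comparison and by -0.11 from fetal to adult. The labels do not say that equal replicate numbers share an animal or day, and same-numbered libraries did not deviate together (correlations -0.0649 to 0.0521). A replicate block gave 3713, 7801 and 6985 called genes in place of 4114, 7987 and 7197, and every call of a member was kept. Cdh1 from fetal to neonatal lost its call with that block (adjusted p = 0.0633) and without the filter (adjusted p = 0.0559). DESeq2 called Fn1 lower from neonatal to adult (adjusted p = 0.0383). The cause of these changes was not tested. Depth limits Itgb7 and the fetal values of Itgb2, Itgam and Itgal, which rest on at most 63 reads per library.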
